A study of Mus musculus with 4 samples.

Results

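A set of 10 genes that mark the vessel wall were followed, 6 of endothelial cells (Pecam1, Cdh5, Flt1, Cldn5, Kdr and Emcn) and 4 of pericytes (Rgs5, Abcc9, Pdgfrb and Cspg4). They were found by symbol, and all 10 were among the 27998 genes listed for each of 3 cell captures and the 48816 listed for the nucleus capture. A cell barcode stands for 1 droplet, and a UMI for 1 counted RNA molecule. The barcodes that held UMIs of 2 or more of the 10 genes were counted first, and the stria vascularis (SV) cell types in which single genes appeared were described after that.

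The SV is a vascular epithelium of the cochlear lateral wall that makes the high potassium of the endolymph and the endocochlear potential. A dense capillary bed runs through its intermediate layer, with endothelial cells joined by tight junctions and wrapped by many pericytes, and this wall forms the blood-labyrinth barrier. Endothelial cells are known for adhesion proteins at their contacts (Pecam1, Cdh5), the tight junction protein Cldn5, receptors of vascular endothelial growth factor (Flt1, Kdr) and the surface sialomucin Emcn. Pericytes are known for the platelet-derived growth factor receptor Pdgfrb, the potassium channel subunit Abcc9, the G protein regulator Rgs5 and the proteoglycan Cspg4, also called NG2.

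SV tissue came from CBA/J mice of postnatal day 30, pooled over several animals for each of 3 captures of whole cells and 1 capture of nuclei on a droplet platform, the whole cells after dissociation with trypsin. The cell captures held 392, 1358 and 1580 barcodes with 2811309 to 8340882 UMIs, and the nucleus capture held 11057 barcodes with 22332501 UMIs. Median depth was 3878 to 5054 UMIs in cells and 1561 in nuclei, and mitochondrial genes took a median of 38.2% to 44.0% of UMIs in the cell captures. Between 0 and 32 barcode sequences were shared by a pair of libraries. No group was compared with another, since all captures were of 1 strain and age, and the captures served as the replicates of whole cells while the single nucleus capture had none.

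The members lie on separate chromosomes of mm10 except Flt1 and Kdr, which are both on chromosome 5. By the GENCODE annotation, Cdh5 overlaps Gm29682 on the opposite strand and Abcc9 overlaps 5330439B14Rik on the opposite strand, so reads of the pairs cannot be told apart unless the counting used strand. Promoters of 7 members (300 bases around the start, RefSeq, GRCm38.p6) were at hand. The 3 below belong to the members on which the results turn, Emcn in an unnamed cluster, Rgs5 in the few barcodes with both sets of markers, and Cspg4 in intermediate cells. Capitals mark the letters CAGGAAG read on either strand, which hold the core that ETS factors bind.
Emcn, chr3:137340828-137341127, plus strand: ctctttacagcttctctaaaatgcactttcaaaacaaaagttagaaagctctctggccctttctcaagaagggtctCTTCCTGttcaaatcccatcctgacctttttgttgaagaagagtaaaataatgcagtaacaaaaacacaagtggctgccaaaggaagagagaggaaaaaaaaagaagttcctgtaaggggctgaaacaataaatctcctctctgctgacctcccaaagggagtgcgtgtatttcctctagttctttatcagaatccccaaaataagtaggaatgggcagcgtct
Rgs5, chr1:169655251-169655550, plus strand: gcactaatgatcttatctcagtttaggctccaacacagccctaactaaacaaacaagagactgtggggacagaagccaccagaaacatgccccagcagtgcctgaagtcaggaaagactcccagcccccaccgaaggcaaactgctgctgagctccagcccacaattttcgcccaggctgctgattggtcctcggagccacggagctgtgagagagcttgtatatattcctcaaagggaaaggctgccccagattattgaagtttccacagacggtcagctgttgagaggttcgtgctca
Cspg4, chr9:56864854-56865153, plus strand: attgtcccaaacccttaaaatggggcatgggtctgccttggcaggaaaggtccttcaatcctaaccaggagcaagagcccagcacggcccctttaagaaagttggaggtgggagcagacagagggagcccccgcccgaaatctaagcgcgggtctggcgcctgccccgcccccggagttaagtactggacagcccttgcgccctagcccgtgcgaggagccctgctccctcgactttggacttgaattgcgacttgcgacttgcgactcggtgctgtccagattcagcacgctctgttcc
The letters occurred in 1 of the 7 promoters, that of Emcn, and in 4359 of 32851 promoters of the same length in the table, or 13.3%.

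Few barcodes held several members. Of 3330 barcodes in the cell captures, 2971 had no member, 329 had 1, and 30 had 2 or more (0.901%, exact 95% binomial interval 0.609% to 1.28%). These 30 were 3 of 392, 11 of 1358 and 16 of 1580 barcodes in captures 1, 2 and 3, or 0.765%, 0.810% and 1.01%, and the 3 intervals overlapped. In nuclei 25 of 11057 barcodes had 2 or more members (0.226%, 0.146% to 0.334%). The intervals here and below cover counting error only. When each barcode was thinned to 1000 UMIs, 8 of 3330 cells and 9 of 10799 nuclei still had 2 or more members, and 258 nuclei below that depth were left out.

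A small set stood apart from the rest. In cells, 18 barcodes had 2 members, 6 had 3, 2 had 4, none had 5 to 7, 3 had 8 and 1 had 9. The 4 barcodes with 8 or 9 members made up 0.120% of the cells (0.0327% to 0.307%), and 1 came from capture 1 and 3 from capture 3. Among the 1358 barcodes of capture 2 none had 6 or more members, which allows a share of up to 0.221%. In nuclei 2 barcodes had 6 or more members, 1 with 6 and 1 with 8, or 0.0181% (0.00219% to 0.0653%).

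**Figure D1:**
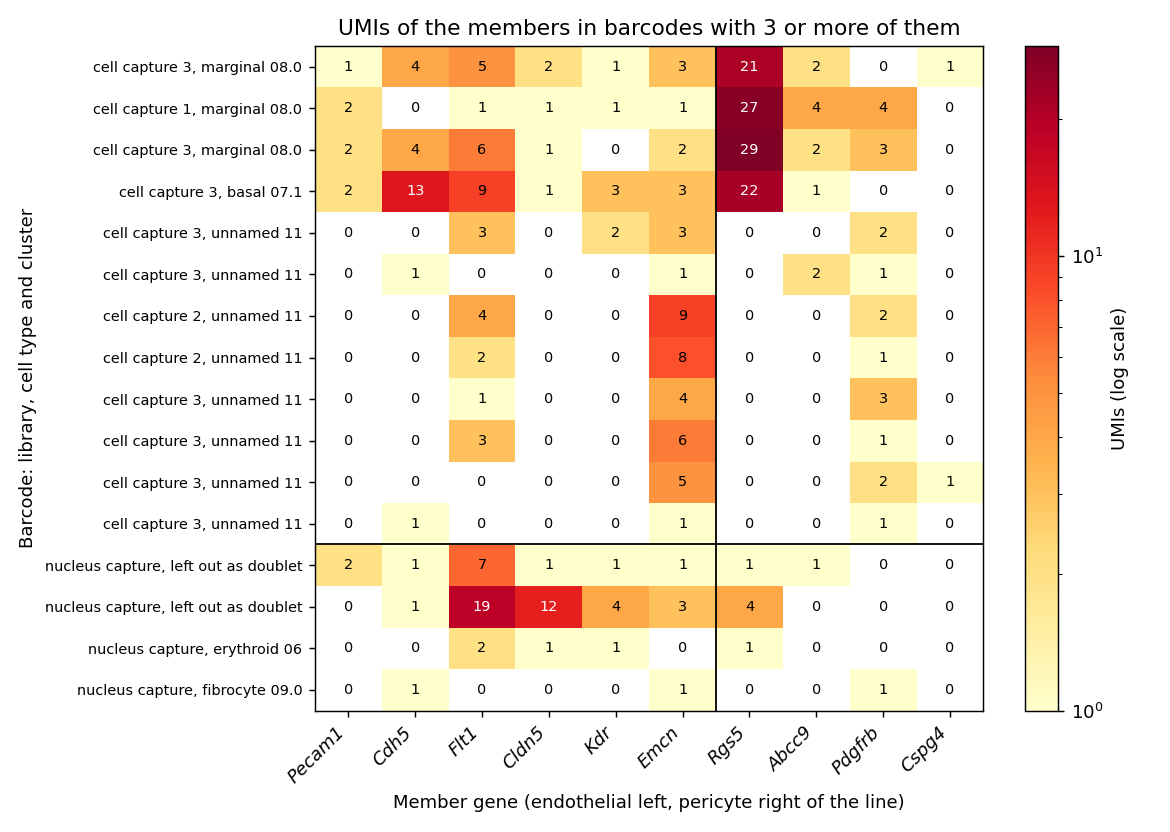
UMIs of each member (columns) in the 12 cell and 4 nucleus barcodes with 3 or more members (rows, named by library, cell type and cluster), with colour on a log scale. The 4 top rows hold both endothelial members and 21 to 29 UMIs of Rgs5, whereas the 8 barcodes of cluster 11 hold none of Rgs5, Pecam1 and Cldn5.

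The 4 cell barcodes held endothelial and pericyte RNA together. Rgs5, which restrains G protein signalling and marks pericytes of capillaries, had 27, 21, 29 and 22 UMIs in them. Flt1 had 1, 5, 6 and 9 UMIs, Cdh5 0, 4, 4 and 13, Emcn 1, 3, 2 and 3, and Pecam1 2, 1, 2 and 2. Every one of the 4 had Abcc9 (4, 2, 2 and 1 UMIs), a regulatory subunit of the ATP-sensitive potassium channel, and Cldn5 (1, 2, 1 and 1). Pdgfrb was found in 2 of the 4, with 4 and 3 UMIs, and Cspg4 in 1, with 1 UMI. These barcodes had 15087, 7359, 10713 and 9043 UMIs, above the median of their captures, and none was removed as a doublet.

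The 2 nucleus barcodes held mostly endothelial members, with few pericyte UMIs. The first had 1865 UMIs in all, with 7 of Flt1, 2 of Pecam1 and 1 of each of Cdh5, Cldn5, Kdr, Emcn, Rgs5 and Abcc9. The second had 5127 UMIs, with 19 of Flt1, 12 of Cldn5, 4 of Kdr, 4 of Rgs5, 3 of Emcn and 1 of Cdh5. Both were among the 916 nuclei that were left out as doublets, so they belonged to no cluster.

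Other endothelial genes, which had no part in choosing these barcodes, lay in the same ones. Of a wider list of 26 endothelial genes, the 4 cell barcodes held UMIs of 17 to 20 each (median 18.5), against at most 6 in the 26 barcodes with 2 to 5 members and at most 5 in the 3300 others. Together the 4 barcodes had 24 of the 26 genes, and the wider list made 58.1 UMIs per 10000, against 0.891 in the 2971 barcodes with no member. The 5 genes of the list with the most UMIs in barcodes of 2 or more members were Ramp2, Ly6c1, Egfl7, Slco1a4 and Slc2a1. Egfl7, a protein that endothelial cells secrete, had 39 UMIs in the 4 barcodes, 0 in the 26 and 38 in the 3300. Slco1a4, an organic anion transporter of brain capillaries, had 32, 6 and 14 UMIs, and Ly6c1, a surface protein of capillary endothelium, had 26, 17 and 182. The glucose transporter Slc2a1 was at 355 CPM (199 to 586) in the 4 barcodes, 51.6 CPM (27.5 to 88.2) in the 26 and 23.2 CPM in the 3300, where CPM is UMIs per 1000000 UMIs. Ramp2, a partner of the adrenomedullin receptor, was at 71.1 CPM (14.7 to 208) in the 4 barcodes and 171 CPM (124 to 230) in the 26, and the intervals overlapped.

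In nuclei the 2 barcodes with 6 and 8 members held 15 and 10 of the 26 genes, and the wider list made 146 UMIs per 10000 in them against 0.822 in nuclei with no member. Another nucleus had 8 of the 26 genes with 2 members, 2 UMIs of Flt1 and 5 of Cldn5, and was also left out as a doublet. No other nucleus had more than 4 of the genes.

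**Figure D2:**
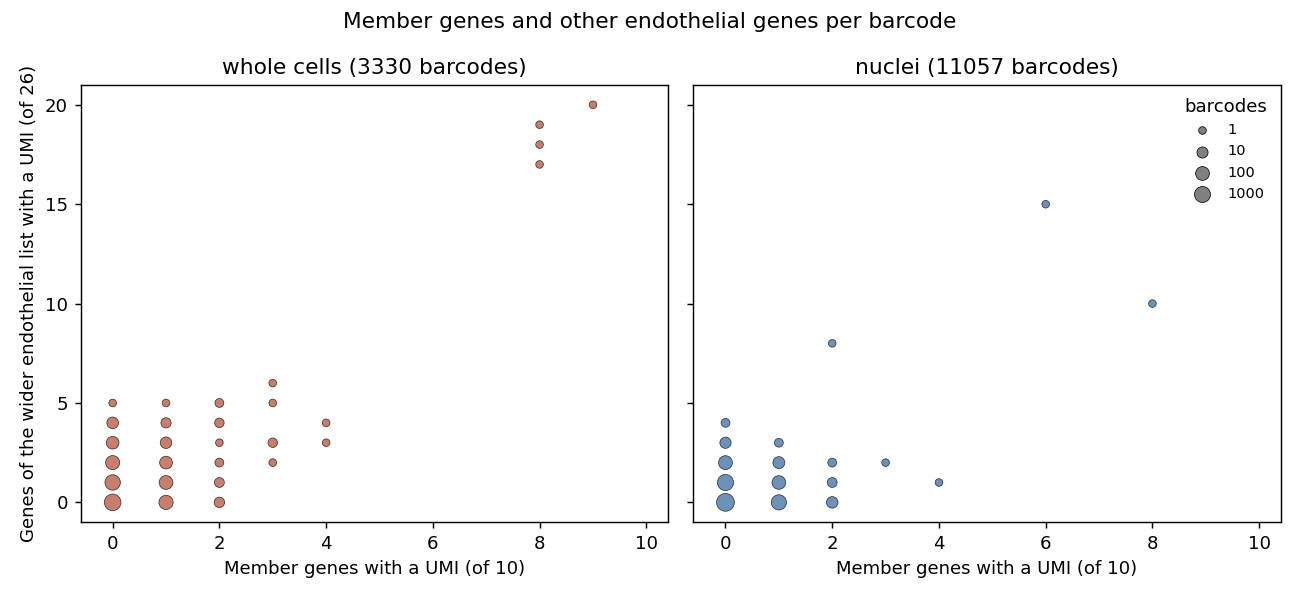
Number of the 10 members with a UMI (x axis) against the number of genes of the wider endothelial list with a UMI (y axis) per barcode, with larger points for more barcodes. In whole cells 4 barcodes lie at 17 to 20 genes and no other lies above 6, and in nuclei 3 barcodes lie at 8 to 15 genes.

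Genes of mural cells, the pericytes and smooth muscle of vessels, were fewer in these barcodes. Of a wider mural list of 19 genes, the 4 cell barcodes held 9, 5, 8 and 2, against at most 5 in all other barcodes. Rgs4 made 23 of their 49 mural UMIs, and it was also a gene of marginal cells, with 1042 ± 40.8 CPM there (SD, n = 3). Kcnj8, the pore of the potassium channel that Abcc9 belongs to, had 5 UMIs in the 4 barcodes, 5 in the 26 and 2 in the 3300. The smooth muscle genes Acta2, Myh11, Tagln and Cnn1 had no UMI in the 4 barcodes. Of these 4 genes Acta2 and Cnn1 had none in any cell. The nuclei with 6 and 8 members held 1 and 2 of the 19 mural genes, with 4 UMIs in all, 3 of them of Rgs4.

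The 4 barcodes fell into clusters of SV types, with low levels of the markers of those types. Of these barcodes 3 lay in a cluster of marginal cells (08.0, 58 cells) and 1 in a cluster of basal cells (07.1, 57 cells). The 8 marginal markers made 6363, 3125 and 2240 CPM in the 3 barcodes, whereas the 10th percentile of marginal cells was 6350 and their median 10138 CPM. The basal markers made 332 CPM in the fourth barcode, against a 10th percentile of 1728 CPM in basal cells. Intermediate cell markers were also present, at 9677, 3669 and 4947 CPM in the 3 barcodes and 1106 CPM in the fourth. The 10th and 90th percentiles were 297 and 13961 CPM in marginal cells, and the 10th percentile was 2051 CPM in basal cells. The 3 thus lay within the range of marginal cells, and the fourth was below that of basal cells. The part of free RNA or of attached cells in these barcodes was not tested. No cluster of cells or of nuclei was named endothelial or pericyte from the markers. Few captured vascular cells and little RNA per vascular cell cannot be told apart in these counts.

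Most other barcodes with several members belonged to 1 small cluster without a name. Cluster 11 had 41 cells (2, 19 and 20 in captures 1, 2 and 3), and its leading genes by fold were Dcn, Ccl11, Aard, Meg3 and Igfbp2, of which Dcn encodes a matrix proteoglycan of fibroblasts. Of the marker classes its score was highest for fibrocytes and second for basal cells, too close to give it a name. It held 18 of the 30 barcodes with 2 or more members, which was 43.9% of its cells (28.5% to 60.3%), at a median depth of 3397 UMIs. The combinations seen most often were Flt1, Emcn and Pdgfrb in 4 of the 18 barcodes, Flt1 and Emcn in 3, and Cdh5 and Emcn in 3. Emcn had 80 of its 93 UMIs in cluster 11, in 22 of the 41 cells, at 514, 484 and 199 CPM in the 3 captures, and Flt1 had 20 of 41 UMIs there, in 11 cells, at 0, 98.6 and 74.6 CPM. Pdgfrb had 17 of 27 UMIs in it, in 12 cells, and Abcc9 26 of 35, in 5 cells. Of these Abcc9 UMIs 25 came from 4 cells of capture 3, with 16 in 1 of them, and the levels were 0, 8.96 and 207 CPM by capture. In cluster 11 Pecam1, Cldn5 and Rgs5 had no UMI. The members had no part in forming the clusters, and they were set beside the cluster as a description.

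In nuclei Emcn was highest in a small unnamed cluster, and its likeness to cluster 11 of the cells was not tested. Unnamed cluster 09.2 had 31 nuclei, led by Tenm2, Cdh6, Robo2 and Dcn and scoring first as basal and second as pericyte, and 11 of them (35.5%, 19.2% to 54.6%) had Emcn at 338 CPM (203 to 528, exact Poisson interval). Flt1 was in 5 of the 31 nuclei at 88.9 CPM (28.9 to 207), and 3 of the 31 nuclei had 2 or more members. Pecam1, Cldn5 and Rgs5 were absent from it at this depth. For comparison, Emcn was in 1 of 489 erythroid nuclei (0.204%) at a median depth of 5264 UMIs, against 1616 in cluster 09.2. These depths are not alike, since erythroid markers made a median of 889273 CPM in erythroid nuclei.

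Pecam1 with Cspg4 was the pair found most often among the other barcodes. It alone made 5 of the 30 cell barcodes, 4 of them intermediate cells, and 6 of the 25 nucleus barcodes, 5 of them intermediate nuclei. Each had 1 or 2 UMIs of Pecam1 and 1 to 3 of Cspg4. These were also the 2 most widely found members, in 42 and 264 of the 3330 cells and in 198 and 188 of the 11057 nuclei. Of 926 intermediate cells, 21 had Pecam1 and 156 had Cspg4. Whether the pair occurred more often than such shares give was not tested. A spindle/root cell of capture 3 had 4 UMIs of Rgs5 and 1 of Pecam1, with 5 of the 26 wider endothelial genes. An erythroid nucleus had UMIs of Flt1, Cldn5, Kdr and Rgs5 but 1 of the 26 wider genes.

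The other RNA of the 30 barcodes was compared with all other barcodes of the same capture. UMIs were summed per capture and fitted in edgeR with the capture as a block, and capture 1 was left out because it had 3 such barcodes and a sum needed 5. Only captures 2 and 3 remained, so the calls lean on a spread that edgeR shares across genes. Of 10781 genes tested, with the members left out, 484 were higher (4.49%) and 414 lower (3.84%) at an adjusted p under 0.05. The split depended on scaling, with 913 higher and 98 lower without TMM, and the median log2 fold change of all genes was -0.26. With the 4 barcodes of 6 or more members left out, 522 genes were higher and 541 lower.

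Of the wider endothelial list 7 of 26 genes were tested, and 4 were higher (Tek, Cd34, Ramp2 and Ly6c1) and 0 lower. Of the wider mural list 7 of 19 were tested, with 5 higher (Des, Lmod1, Myl9, Anpep and Tbx18) and 1 lower (Rgs4). Since these genes had to pass a filter on low counts, the counts cover the tested genes and not the lists. Tek, Cd34, Des, Lmod1 and Anpep did not reach its level in the other barcodes of both fitted captures, and passed only with the chosen ones. Their calls therefore follow from the choice, and their folds are not given. Ramp2, Ly6c1, Myl9, Tbx18 and Rgs4 reached it in the other barcodes of both. The calls of Ramp2, Tbx18 and Myl9 describe mostly cluster 11, which held 40 of 46, 47 of 66 and 18 of 21 of their UMIs in the chosen barcodes. The 4 barcodes with 6 or more members held 3, 2 and 1 of these UMIs. Of the 43 UMIs of Ly6c1 in the chosen barcodes, 26 lay in the 4 and 17 in cluster 11. The lower call of Rgs4 does not hold for the 4 barcodes, where it was at 545 CPM (345 to 818). It was at 39.7 CPM (19.0 to 73.0) in the 26 barcodes with 2 to 5 members and at 183 CPM in the 3300 others. How many of the 484 higher genes passed only with the chosen barcodes was not counted. Tek is the angiopoietin receptor of endothelial cells. Its level was 22.0, 47.1 and 91.6 CPM in the chosen barcodes of captures 1, 2 and 3 and at most 0.125 CPM in the others. The 22.0 CPM of capture 1 stands for 1 UMI. Of its 20 UMIs in the chosen barcodes, 13 lay in the 4 and 7 in cluster 11.

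The other 9 genes with the largest changes that were higher in all 3 captures were Igfbp3, Bgn, Des, Ntrk2, Meg3, Igfbp7, Lox, Lmntd1 and Sdpr. Of these only Meg3 and Sdpr reached the level of the filter in the other barcodes of both fitted captures, with log2 fold changes of 6.33 and 5.97. These are a description since low levels in the other barcodes stretch them, and the folds of the rest are not given. In capture 1, which had no chosen barcode in cluster 11, each gene but Sdpr had 1 UMI in the chosen barcodes. Igfbp3 and Igfbp7, which bind insulin-like growth factors or related proteins in the matrix, had 10 of 19 and 11 of 22 of their UMIs within the chosen barcodes in the 4 barcodes. The other 7 had 89.3% to 99.3% of their UMIs within the chosen barcodes in cluster 11, among them Bgn, a matrix proteoglycan, Des, the intermediate filament of muscle and mural cells, and Lox, which crosslinks collagen. Bgn was at 22.0, 259 and 196 CPM in the chosen barcodes and at 2.17, 2.24 and 0.611 CPM in the others. The 22.0 CPM of capture 1 stands for 1 UMI, here and for Des. Des was at 22.0, 247 and 104 CPM against 0.362, 0.747 and 1.10 CPM, and 38 of its 39 UMIs in the chosen barcodes lay in cluster 11, with 16 UMIs in all other barcodes.

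In nuclei, with 1 library and no test, genes with at least 10 UMIs that were found in at least 20% of the 25 chosen nuclei were ordered by the ratio of CPM. The largest belonged to Slco1a4, at 313 CPM (196 to 473) in the 25 chosen nuclei against 4.22 CPM in the others, and 19 of its 22 UMIs in the chosen nuclei lay in the 2 with 6 or more members. Under that filter the next 9 genes were Runx2, Kctd12, St8sia4, Abcg2, Klf2, Dock2, Gria3, Arhgap6 and Runx1, at ratios of 36.9 to 10.3. Abcg2, an efflux pump of capillaries, and Klf2, a factor of endothelium under flow, had 8 of 20 and 6 of 15 of their UMIs in the chosen nuclei in those 2. Runx2, Dock2, Gria3, Arhgap6 and Runx1 had 0 there. Ly6c1 and Itm2a of the wider list were found in 4 and 3 of the 25 nuclei, too few for the filter, at 341 and 298 CPM against 8.18 and 20.0 CPM in the others. The 2 nuclei with 6 or more members held 21 of the 24 UMIs of Ly6c1. They held 19 of the 21 UMIs of Itm2a, all of these in 1 nucleus.

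**Figure D3:**
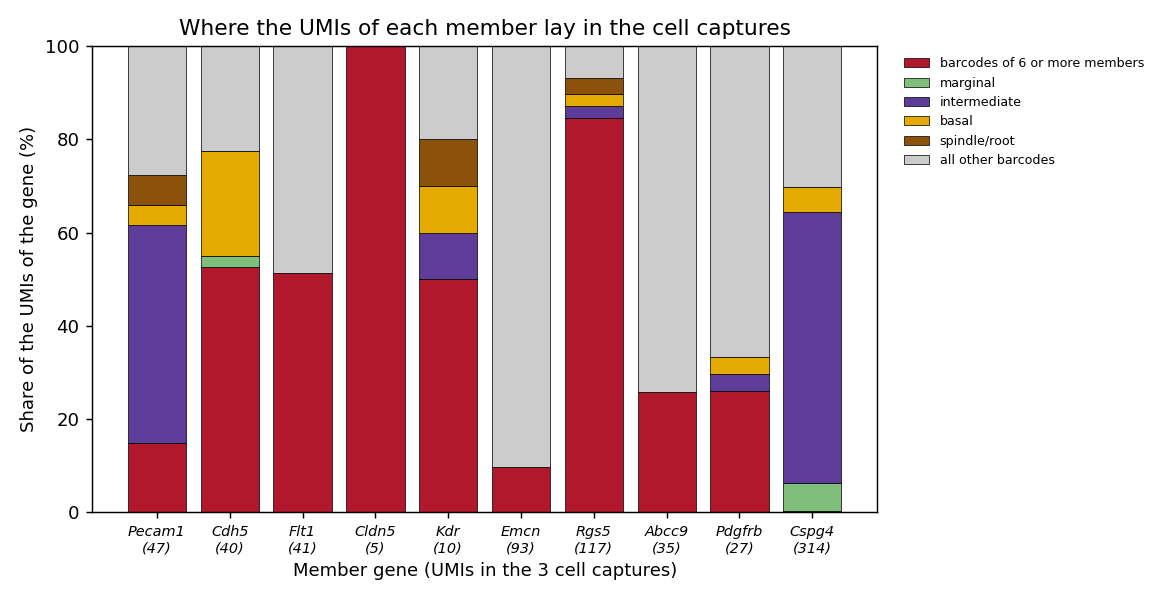
Share of the UMIs of each member in the 3 cell captures (bars, with the number of UMIs in brackets) by place. Cldn5 lies wholly and Rgs5 to 84.6% in the 4 barcodes with 6 or more members, Emcn to 90.3% in other barcodes, and Cspg4 to 58.0% in intermediate cells.

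The members differed in where they lay. Cspg4 was found most widely, in 264 of 3330 cells (7.93%) with 17.8 ± 4.72 CPM (SD, n = 3 captures), and Cldn5 least, in 4 cells with 5 UMIs. Rgs5 followed Cspg4 with 6.96 ± 5.29 CPM but was in 19 cells, and 99 of its 117 UMIs lay in the 4 barcodes. Cdh5 (2.00 ± 1.14 CPM, 17 cells), Flt1 (1.73 ± 1.59, 15 cells) and Kdr (0.635 ± 0.562, 7 cells) had 50% to 52.5% of their UMIs there. Emcn was at 4.02 ± 2.92 CPM in 30 cells, Pecam1 at 2.60 ± 0.776 in 42, Abcc9 at 1.71 ± 1.75 in 9 and Pdgfrb at 1.48 ± 0.535 in 17. CPM counts UMIs and not transcript length, so the levels order detection rather than expression between genes. From Rgs5 down to Cldn5, neighbours in the order of the means did not differ beyond their SD. In nuclei Pecam1 was the highest, at 10.6 CPM, then Cspg4 at 8.87 CPM, and Rgs5 was at 0.672 CPM.

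Of the endothelial members, Pecam1 was mostly a gene of blood cells in nuclei. B cell nuclei held 108 of its 237 UMIs, with a UMI in 80 of 208 nuclei (38.5%, 31.8% to 45.4%) and 254 CPM (208 to 307). Unnamed cluster 14, led by the myeloid genes Elane, Mpo and Plac8, had it in 12 of 90 nuclei at 48.7 CPM (26.6 to 81.6). The level was 6.35 CPM (4.22 to 9.17) in marginal nuclei, 10.3 CPM (6.70 to 15.0) in intermediate and 9.76 CPM (4.87 to 17.5) in basal nuclei, whose intervals overlapped. Erythroid nuclei were at 0.743 CPM (0.0900 to 2.68), below those 3 intervals, and spindle/root nuclei were at 8.34 CPM (1.72 to 24.4), which overlapped all of them. The erythroid level is not a like measure, since erythroid markers made a median of 889273 CPM in those nuclei. In cells B cells had 51.1 CPM, in 6 of 37 cells, and intermediate cells were at 3.79, 5.03 and 2.04 CPM in the 3 captures.

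Cdh5, the cadherin of endothelial junctions, had 14 of its 36 nuclear UMIs in basal nuclei, in 12 of 659 (1.82%, 0.944% to 3.16%), against 1 of 2600 marginal (0.0385%) and 2 of 1486 intermediate nuclei (0.135%). Their median depths were 1541, 1396 and 1425.5 UMIs. In basal cells it was at 14.5, 4.53 and 57.2 CPM in captures 1, 2 and 3. Of its 22 UMIs there, 13 came from the barcode with 8 members and 5 from 1 cell of capture 1. Outside barcodes with 2 or more members basal cells kept 8 UMIs, marginal cells 1 and intermediate cells 0.

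Flt1, Emcn and Cldn5 had no UMI in marginal or basal cells once the 4 barcodes were left out. With them, Flt1 was at 3.95, 0 and 22.8 CPM in marginal cells and at 0, 0 and 36.8 CPM in basal cells. Intermediate cells had no UMI of Flt1, Emcn, Cdh5 or Cldn5 in any capture, among 926 cells. In nuclei Flt1 was in 22 of 2600 marginal nuclei (0.846%, 0.531% to 1.28%). Its share was 0.818% in erythroid nuclei, which should lack it, at a median depth of 5264 UMIs. Per UMI the level was 4.99 CPM (3.13 to 7.55) in marginal and 1.86 CPM (0.603 to 4.33) in erythroid nuclei, with overlapping intervals. Erythroid markers made a median of 889273 CPM in erythroid nuclei, so other RNA was a small part of their UMIs. Neither the shares nor the levels of Flt1 were therefore compared at a like depth of other RNA. Kdr, the main receptor of vascular endothelial growth factor, had 10 UMIs in cells and 18 in nuclei, and no type held more than 5 of either.

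Of the pericyte members, Cspg4 was carried by intermediate cells. In captures 1, 2 and 3 it was at 37.0, 25.9 and 31.1 CPM in intermediate cells, at 19.8, 10.2 and 14.5 CPM in marginal cells and at 23.2, 4.53 and 24.5 CPM in basal cells. It had no UMI in spindle/root cells. Among the clusters of marginal cells, any member was seen in 18 of 58 cells of 08.0, 0 of 44 of 08.1 and 1 of 33 of 08.2. The Cspg4 of marginal cells thus lay nearly all in cluster 08.0. Median depths were 14480.5 UMIs in 08.0, 11239.5 in 08.1 and 6582 in 08.2. Intermediate cells were the highest in each capture, and their lowest capture lay above the highest of each other type. In nuclei intermediate cells held 109 of 198 UMIs, at 43.0 CPM (35.3 to 51.9), against 1.36 CPM (0.499 to 2.96) in marginal, 5.32 CPM (1.95 to 11.6) in basal and 1.11 CPM in erythroid nuclei. The RNA of erythroid markers, at a median of 889273 CPM in erythroid nuclei, lowers the last value.

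A UMI of Cspg4 was seen in 156 of 926 intermediate cells (16.8%), 16 of 135 marginal cells (11.9%) and 3 of 100 erythroid cells (3%), which should lack it, with median depths of 6006.5, 11489 and 10193.5 UMIs. After thinning to 1000 UMIs these were 18, 4 and 1 cells, or 1.94%, 2.96% and 1%, so no order of marginal and intermediate cells was read from the shares. The marginal share came nearly all from cluster 08.0 and is not a trait of all marginal clusters. Erythroid markers made a median of 851634 CPM in erythroid cells, so their shares are not at a like depth of other RNA, thinned or not. In nuclei the thinned shares were 4.66% of intermediate and 0.118% of marginal nuclei. Unnamed cluster 06 of 179 cells, whose first marker class was intermediate without a raised marker, had Cspg4 at 37.1, 24.3 and 32.9 CPM. Intermediate cells are pigment cells of neural crest origin, and Cspg4 is known as a proteoglycan of melanocytes and melanoma as well as of pericytes.

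Rgs5 lay mostly in the 4 barcodes. It was at 107, 0 and 104 CPM in marginal cells with them and had no UMI without them, and basal cells fell from 25 to 3 UMIs. Intermediate cells had 3 UMIs, in 3 of 926 cells. Spindle/root cells had 4 UMIs, all in 1 cell of capture 3, which gave 0, 0 and 42.3 CPM by capture, and spindle/root nuclei were at 8.34 CPM (1.72 to 24.4). Abcc9 had no UMI in intermediate or spindle/root cells, and Pdgfrb had 1 UMI in intermediate cells and 1 in basal cells outside the 4 barcodes. In nuclei the 2 highest levels of Pdgfrb were 71.1 CPM in the unnamed cluster 09.2 and 35.6 CPM (15.4 to 70.2) in fibrocytes. No order of these 2 was read, since the first comes from 31 nuclei and is given without an interval. Basal nuclei were at 6.21 CPM (2.50 to 12.8).

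**Figure D4:**
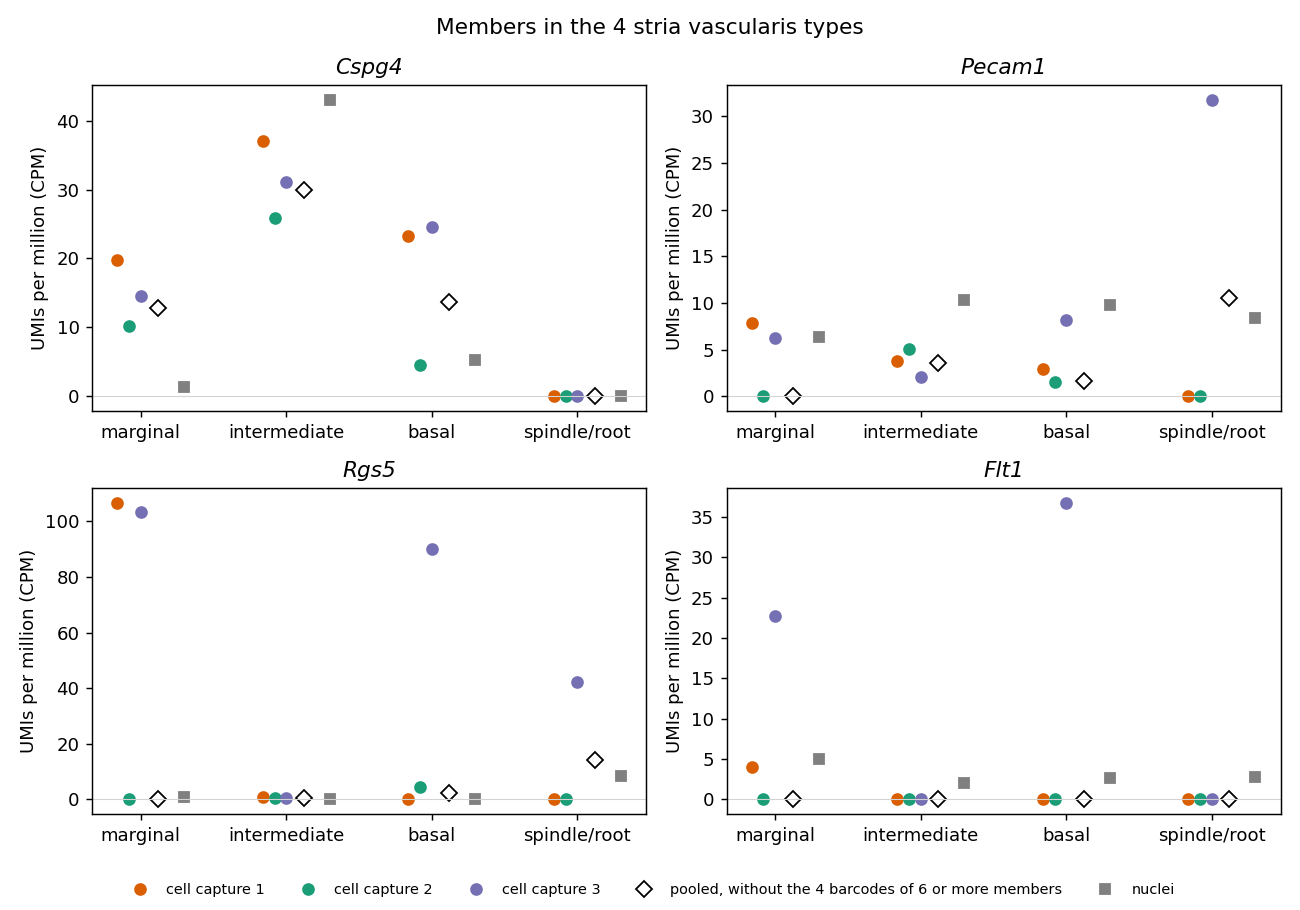
Level of 4 members (y axis, CPM) in the 4 SV types, with a dot for each cell capture, a diamond for the pooled cells without the 4 barcodes, and a square for the nuclei. Cspg4 is highest in intermediate cells and nuclei, and the levels of Rgs5 and Flt1 in marginal and basal cells fall to 2.41 CPM or less without the 4 barcodes.

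Sums of the 4 types in each capture were then tested in edgeR, each type against the mean of the other 3, with 11 sums because spindle/root cells of capture 1 were under 5. Only Rgs5, Flt1 and Cspg4 of the 10 members passed the filter on low counts. Of all 7502 genes tested, 24.7% were called in marginal, 34.6% in intermediate, 23.5% in basal and 20.1% in spindle/root cells at an adjusted p under 0.05, and 4 of the 12 tests of members were called. Cspg4 was higher in intermediate cells (log2 fold change 3.47 ± 0.59, SE, adjusted p = 2.61e-06). Spindle/root cells without a UMI stretch that value, and against marginal and basal cells alone it was 1.38 ± 0.25 (adjusted p = 7.20e-06). In intermediate cells Cspg4 passed under every alternative run. Apart from that run without spindle/root cells, its log2 fold change was 2.00 at resolution 0.4 to 3.73 with members among the variable genes. Its lower level in spindle/root cells (adjusted p = 0.0407) passed in few of the alternatives.

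Flt1 was called higher in marginal cells (log2 fold change 3.79 ± 1.17, adjusted p = 0.0125) and in basal cells (4.42 ± 1.21, adjusted p = 0.00495). Both values rest on the 4 barcodes, without which Flt1 had no UMI in the 4 types. The calls were also lost without the replicate block (adjusted p = 0.503 and 0.522, edgeR) and in DESeq2 (adjusted p = 0.833 and 0.836). Rgs5 did not pass in marginal cells (3.07 ± 0.93, adjusted p = 0.0594), in intermediate cells (-5.35 ± 1.78, 0.0631) or in the other 2 types. It passed in marginal cells without any 1 of the captures (adjusted p = 1.82e-05, 6.37e-09 and 0.00462, edgeR, leaving out captures 1, 2 and 3) and without a filter on low counts. These values rest on the 4 barcodes too, without which Rgs5 was too low to be tested. In intermediate cells it passed as lower under 6 of the 11 alternatives that tested it, with adjusted p from 3.72e-08 without capture 1 to 0.0478 without TMM (edgeR). Those calls also rest on the 4 barcodes, which lie in the marginal and basal cells of the contrast, and show no loss of Rgs5 in intermediate cells. Without the 4, pooled levels were 0.493 CPM in intermediate, 0 in marginal and 2.41 in basal cells. Spindle/root cells were at 14.0 CPM, all from 1 cell.

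Genes of vascular growth factor signalling were found in the SV types themselves. Of 15 genes, 9 were tested, and 4 were higher and 1 lower in marginal cells, 2 and 3 in intermediate, 4 and 0 in basal and 2 and 3 in spindle/root cells, with medians of 0.50, -0.12, 0.64 and -0.70 against medians of 0.06, 0.03, 0.02 and -0.09 over all genes. Over all genes 24.7%, 34.6%, 23.5% and 20.1% were called in these types. Nrp2, a co-receptor of these ligands, was at 728 ± 24.8 CPM in intermediate, 367 ± 88.9 in basal, 261 ± 33.9 in marginal and 40.7 ± 48.5 in spindle/root cells (SD, n = 3). It was higher in intermediate cells by 2.37 ± 0.15 on the log2 scale (adjusted p = 7.64e-13, edgeR). Vegfb was at 205 ± 17.4 CPM in intermediate and 201 ± 12.2 CPM in marginal cells, which did not differ beyond their SD. Pdgfra, a receptor of fibroblasts, was at 163 ± 28.0 CPM in basal cells and at most 5.37 CPM in the mean of the other types. It passed the filter on low counts only through basal cells, so its call is a description and its fold is not given. How many other calls passed only through the type called was not counted. Cluster 11, outside this test, held 44 UMIs of Pdgfra in its 18 barcodes with 2 or more members, against 207 in all 93 basal cells. Pdgfa was highest in spindle/root cells, at 128 ± 68.7 CPM, against 51.6 ± 18.6 CPM in marginal cells. Nrp1, which had 21 UMIs in the 4 barcodes, was called in no type.

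Of the wider lists, Ramp2 and Tbx18 were highest in basal cells among the 4 types. Cluster 11 was not in that test, and its 18 barcodes with 2 or more members alone held 40 UMIs of Ramp2 and 47 of Tbx18. All 93 basal cells held 99 and 341 UMIs. Ramp2 was at 79.7 ± 8.92 CPM in basal cells and at most 6.57 CPM in the mean of the other types. Tbx18, a factor of mural cells and mesenchyme, was at 257 ± 51.6 CPM against at most 22.3 CPM. Both passed the filter on low counts only through basal cells, so their calls are a description and their folds are not given. Slc2a1 was at 114 ± 39.0 CPM in basal cells and 24.2 ± 3.14 CPM in intermediate cells. Rgs4 was higher in marginal cells by 3.94 ± 0.23 on the log2 scale (adjusted p = 1.44e-06). Slco1a4, Ly6c1 and Egfl7 were called in marginal cells, the first 2 also in basal cells, where their UMIs lay largely in capture 3. They had 32, 26 and 39 UMIs in the 4 barcodes. Marginal cells, with those barcodes included, had 25, 14 and 27 UMIs, and basal cells 17, 12 and 14. The calls of these 3 genes thus rest wholly or largely on the 4 barcodes, as for Flt1, and are not given without them.

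Over the clusters, the genes whose log2(CPM + 1) was most like the sum of the 6 endothelial members were Arid5b, Hdac7, Akap12, Ehd2 and Tgif1 in cells (Pearson r 0.834 to 0.798 over 20 clusters), and Cacna1e, Cpm, Akap12, Ebf1 and Mdfic in nuclei (0.840 to 0.804 over 22 clusters). Akap12 was in both sets. For the sum of the 4 pericyte members they were Fxyd7, Abat, Adamts1, Npr2 and Sgip1 in cells (0.900 to 0.844) and A230050P20Rik, Fam184a, Adcy8, Mpped2 and Ptprt in nuclei (0.870 to 0.811). These are descriptions, since clusters of 1 library share depth and free RNA, and Cspg4 made most UMIs of the pericyte sum. In nuclei Pecam1 had the most UMIs of the 6 endothelial members, 237, of which 108 lay in B cell nuclei. The 2 nuclei with 6 or more members belonged to no cluster and had no part in these values.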

How the data were processed

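Single-cell and single-nucleus libraries of SV from CBA/J mice at postnatal day 30 were made by the authors on the 10x Genomics Chromium platform, with 3 cell captures and 1 nucleus capture. The deposited values are raw UMI counts per gene and barcode, made by the authors with Cell Ranger 2.0.0 on mm10, per the submitters' processing notes. Whether intronic reads and strand were counted is not given in the sources used here.

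All deposited barcodes were used to count members. The members, lists, markers and tests were chosen with earlier results of these data known. For cell types, barcodes under 200 genes were dropped and Scrublet in scanpy 1.11.5 removed 0.8% of barcodes per 1000. This took 1, 14 and 18 cells and 916 nuclei. Seurat 5.3.0 in R 4.3.3 clustered the rest on 2000 variable genes without the members (40 components for cells, 43 for nuclei, with a JackStraw p under 1e-04, resolution 0.8). Clusters were named from fixed markers, without the members, if at least 3 were raised and no second class scored over 0.67 of the first, and mixed clusters were split once.

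UMI sums per capture were tested in edgeR 4.0.16 (TMM, filterByExpr, quasi-likelihood, 2-sided) with capture as a block, since sums of 1 capture share a suspension, and Benjamini-Hochberg adjustment over all genes tested. DESeq2 1.42.0 was an alternative. The 15 pairs of sums from the same capture correlated at 0.00 to 0.16 after type means were removed. The study's supplement counts the mice of each capture apart, and each capture was 1 pool. With capture as a block, level differences between pools are removed. The p-values thus measure how far differences between sums vary from pool to pool. The test of the chosen barcodes had sums of captures 2 and 3 only, so its p-values lean on a spread that edgeR shares across genes. The test was tested on simulated data with known folds, but the outcome is not given here and lends no weight to the p-values. Intervals are exact binomial or Poisson at 95%, and a count of 0 allows 3 counts of the total. Genes named were all 10 members, the 5 genes of each wider list with the most UMIs in barcodes of 2 or more members, the 10 largest changes that passed (at least 10 UMIs, higher in 3 captures), the 10 largest ratios in nuclei and the 5 most alike genes. Other genes, such as Tek, Acta2 or Cd34, were named after their values were seen. Positions are from GENCODE vM21.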

Additional observations from a re-analysis of the deposited data

How the results depend on the processing

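Single UMIs and the choice of members both move these counts. Of 30 cell barcodes with 2 or more members, 8 remained after thinning to 1000 UMIs, 11 if a member counts from 2 UMIs, 17 with 2 or more endothelial members, 7 with 2 or more pericyte members and 12 with 3 or more members, and leaving out a capture gave 14 to 27. Of 25 nucleus barcodes the same settings gave 9, 3, 13, 2 and 4. Of 898 genes called between barcodes with 2 or more members and the others, DESeq2 called 362, 1366 were called for barcodes with 2 or more endothelial members, and 583 with at least 3 barcodes per sum, a setting chosen after seeing the data that lets capture 1 in. Without the replicate block 941 were called. Leaving out capture 1 changes nothing (898), since it was not in the fit. Leaving out capture 2 or 3, and taking barcodes with 3 or more members, left a single capture and were not run. Of 12 tests of members in types 4 were called, against 2 in DESeq2, 8 of 40 without a filter, 2 without the replicate block, 1 at resolution 1.2, 1 with members among the variable genes, 1 without barcodes of 2 or more members, 2 without those of 6 or more, 2 without spindle/root cells (both chosen after seeing the data) and 2 to 7 without a capture. The number of tests was not 12 in every run. Only Cspg4 was tested without barcodes of 2 or more or of 6 or more members. Only Rgs5 and Cspg4 were tested at resolution 1.2, with members among the variable genes, without spindle/root cells and without capture 3. Without capture 3, which holds 3 of the 4 barcodes, 2 were called. Without capture 2, where Cdh5 and Pecam1 were tested as well, there were 7. The cause of these changes was not tested, except that fewer barcodes, or fewer or more genes, entered by construction. Of 122 single values of members in types under alternatives, 91 kept direction and side of the threshold, 18 were weaker, 13 stronger and 0 turned in a called direction.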
